A study of Mus musculus with 8 samples.

Results

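Endothelial genes were followed over 8 RNA-seq libraries. The libraries were made from polyadenylated RNA of mouse cells labelled as adipocytes. The list held 39 genes that are known to mark the cells lining blood vessels, among 49671 gene rows in the deposited files. Its rule names the genes and uses no measured value, but it was drawn up with earlier results of these data known, and all 39 genes were found in the files. The series holds 4 libraries of BMPR2 DELX mutant mice and 4 of ROSA control mice. The labels give no age, sex, fat depot, culture step, promoter or Cre line for either group, do not describe the DELX or ROSA alleles further, and do not state whether libraries of a group came from separate animals. The p-values below therefore measure the spread between libraries, which may be technical.

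Endothelial cells form the inner layer of blood and lymph vessels. They are held together by junction proteins such as VE-cadherin, respond to VEGF, angiopoietin and apelin ligands through their receptors, recruit leukocytes through selectins, and keep their identity through ETS, SOX and TAL family transcription factors. BMPR2 is a BMP receptor that is strongly expressed by endothelial cells and carries germline mutations in human pulmonary arterial hypertension. Adipose tissue is rich in capillaries, and its stromal cells lie close to their walls.

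Library totals ran from 28799445 to 43684785 counts. The floor of 3 counts that a count of 0 allows was 0.0687 to 0.104 counts per 1000000 library counts (CPM), which covers counting error only. Of 12 adipocyte markers 5 had enough counts to be tested. The means of Lpl, Fabp4, which endothelium also expresses, Pparg, Cebpa and Lipe were 210, 49.9, 21.8, 15.6 and 5.29 CPM in the mutant libraries, against 140, 61.0, 16.1, 8.96 and 4.13 CPM in the control libraries. No library held more than 3 counts of leptin (Lep), perilipin 1 (Plin1), Cidec, adipsin (Cfd) or resistin (Retn), or more than 6 counts of adiponectin (Adipoq), so these markers of mature adipocytes were near 0. Bmpr2 itself averaged 211 ± 17.6 CPM in the mutant and 197 ± 17.0 CPM in the control libraries (SD, n = 4 each), and a gene total does not show what the DELX allele changes. BMPR2 DELX 3 and ROSA 3 stood apart from the other libraries of their groups in the endothelial genes, and the main results are given with and without them.

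The endothelial genes were abundant in some libraries and several times less abundant in others of the same group. The 39 genes summed to 3073, 3135, 771 and 1653 CPM in BMPR2 DELX libraries 1 to 4, against 2694, 3232, 1449 and 2339 CPM in ROSA libraries 1 to 4. The sum was lowest in library 3 of each group, and the groups overlapped. In bulk RNA, fewer endothelial cells and less RNA per endothelial cell cannot be told apart. The highest and lowest library of a tested gene differed by a median of 5.41-fold for the endothelial genes, against 1.51-fold for all genes tested.

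**Figure D1:**
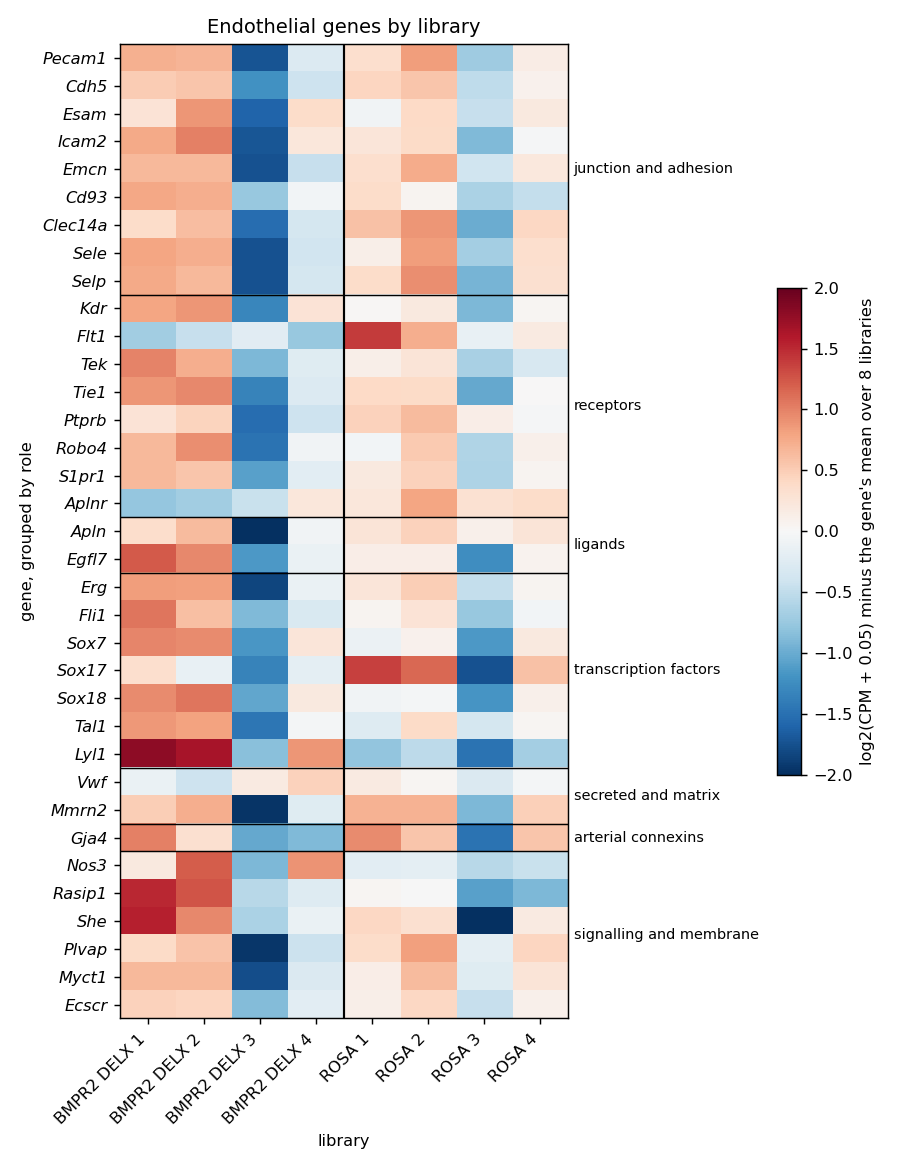
Level of each tested endothelial gene in each library, as log2 of CPM plus 0.05, minus the gene's mean over the 8 libraries, with BMPR2 DELX libraries left of ROSA libraries and genes in rows by role. Red is above and blue below the mean, with colours ending at 2 units from it, and BMPR2 DELX 3 is the bluest column for 25 of the 35 genes.

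Enough counts for a test were present for 35 of the 39 genes, and 33 averaged over 1 CPM. Cldn5, the junction protein claudin 5, had 34, 29, 0 and 8 counts in BMPR2 DELX libraries 1 to 4, against 3, 3, 1 and 1 counts in ROSA libraries 1 to 4. The Notch ligand gene Dll4 reached 17 counts in BMPR2 DELX 2 and at most 3 counts in each ROSA library. Mmrn1, a secreted glycoprotein of platelets and lymphatic endothelium, and Gja5, an arterial connexin, had at most 7 counts in any library. The counts of Cldn5 lay mainly in BMPR2 DELX 1 and 2. These 4 genes were left out of the fit. In the alternative fit with no filter none of the 4 passed, with adjusted p of 0.246 for Cldn5 and 0.213 for Dll4 by edgeR (unadjusted 0.0322 and 0.0253).

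BMPR2 DELX was compared with ROSA across 14887 genes in a single edgeR quasi-likelihood fit, and p-values were adjusted over all of them by the Benjamini-Hochberg method. Of all genes tested, 9.10% were called at an adjusted p below 0.05, with 589 (3.96%) higher and 766 (5.15%) lower in BMPR2 DELX. Of the 35 endothelial genes, 1 was called, the transcription factor gene Lyl1, which was higher in BMPR2 DELX, and 34 did not pass. None was called lower by edgeR, while Flt1 was called lower by DESeq2 and no endothelial gene was called by limma voom. An unadjusted p below 0.05 was reached by 4 endothelial genes, with negative values for Flt1 and Aplnr and positive values for Lyl1 and Rasip1, against 26.3% of all genes tested. The median log2 fold change, BMPR2 DELX over ROSA, was 0.09 over the 35 genes, against 0.0045 over all genes tested, with 19 positive and 16 negative values.

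**Figure D2:**
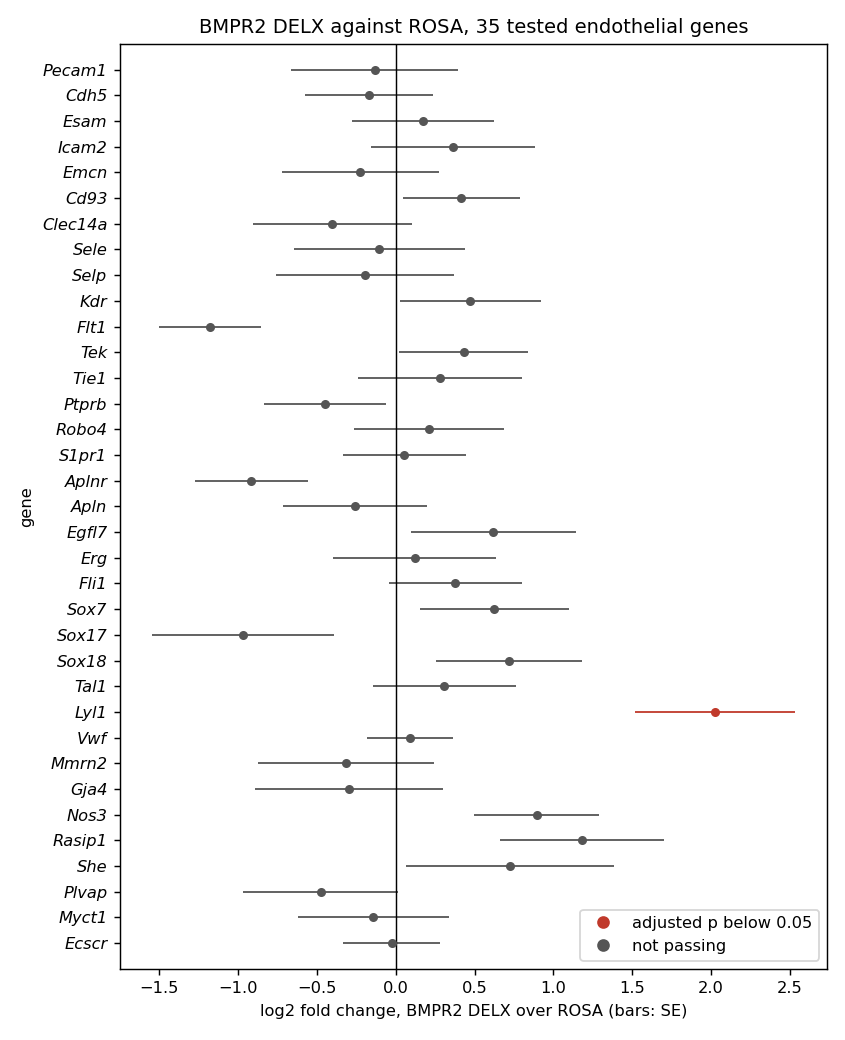
Log2 fold change of each tested endothelial gene, BMPR2 DELX over ROSA, with its standard error as a horizontal bar and genes in rows by role. Most bars cross 0, Lyl1, in red as the 1 gene with an adjusted p below 0.05, lies farthest to the right at 2.03 and Flt1 farthest to the left at -1.18.

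The junction and adhesion genes differed several-fold between libraries of a group and little between the groups. Pecam1, the adhesion molecule CD31, had 289, 283, 53.4 and 146 CPM in BMPR2 DELX libraries 1 to 4, against 224, 317, 109 and 196 CPM in ROSA libraries 1 to 4. Cdh5, which encodes VE-cadherin of the adherens junction, had 387, 398, 117 and 203 CPM in BMPR2 DELX, against 367, 398, 191 and 288 CPM in ROSA. Both genes were highest in libraries 1 and 2 and lowest in library 3 of each group, and their groups overlapped over nearly the whole range. Emcn, the sialomucin endomucin of veins and capillaries, had 407, 407, 78.2 and 190 CPM in BMPR2 DELX, against 330, 436, 198 and 301 CPM in ROSA. Selp, the leukocyte-binding P-selectin, had 420, 393, 74.2 and 195 CPM in BMPR2 DELX, against 323, 474, 131 and 311 CPM in ROSA. These showed the same order of libraries as Pecam1 within BMPR2 DELX except where libraries 1 and 2 were close. The log2 fold change was -0.13 ± 0.53 for Pecam1 and -0.17 ± 0.41 for Cdh5 (standard error), with adjusted p of 0.902 and 0.827 by edgeR. The other tested genes of this role were the tight junction gene Esam, the leukocyte ligand gene Icam2, the lectin-like receptor genes Cd93 and Clec14a, and Sele, the cytokine-induced E-selectin. Of the 9 tested, 9 did not pass, 0 had an unadjusted p below 0.05, and the median log2 fold change was -0.13.

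Among the receptors, Flt1 did not follow the other genes. Flt1, a VEGF receptor that also occurs as a soluble decoy form, had 68.3, 79.6, 93.6 and 65.0 CPM in BMPR2 DELX libraries 1 to 4, against 289, 181, 99.3 and 125 CPM in ROSA libraries 1 to 4. Every BMPR2 DELX library was below every ROSA library, although BMPR2 DELX 3 and ROSA 3 lay close together, and BMPR2 DELX 3 was the highest of its group rather than the lowest. Flt1 was the 1 gene of the 35 whose groups did not overlap, against 18.0% of all genes tested, 8.32% higher and 9.65% lower in BMPR2 DELX. Its log2 fold change was -1.18 ± 0.32, with an unadjusted p of 0.00664 and an adjusted p of 0.0606 by edgeR. DESeq2 gave an adjusted p of 0.0150, and without BMPR2 DELX 3 and ROSA 3 the value was -1.48 ± 0.28 with an adjusted p of 0.0347 by edgeR. Over 18 alternative fits its adjusted p ran from 0.0150 to 0.170, with 4 below 0.05, and its sign was the same in each.

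Kdr, the main signalling receptor for VEGF-A, had 69.8, 75.1, 16.4 and 48.9 CPM in BMPR2 DELX, against 41.3, 46.5, 21.8 and 41.7 CPM in ROSA. Its highest libraries were BMPR2 DELX 1 and 2 and its lowest was BMPR2 DELX 3, so the ROSA range lay inside the BMPR2 DELX range. S1pr1, a sphingosine 1-phosphate receptor that stabilises junctions, had 161, 151, 48.5 and 88.2 CPM in BMPR2 DELX, against 118, 141, 67.0 and 106 CPM in ROSA. Ptprb, the phosphatase VE-PTP, had 56.6, 63.4, 16.2 and 35.1 CPM in BMPR2 DELX, against 64.3, 72.5, 50.9 and 46.1 CPM in ROSA. Both again had their lowest value in BMPR2 DELX 3, with overlapping groups. The log2 fold change was 0.47 ± 0.45 for Kdr, 0.05 ± 0.39 for S1pr1 and -0.45 ± 0.39 for Ptprb, and none passed. The angiopoietin receptor gene Tek, its partner Tie1 and the guidance receptor gene Robo4 had log2 fold changes between 0.21 and 0.43 and did not pass.

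Aplnr, the apelin receptor gene, was near the floor, with 4, 5, 6 and 14 counts in BMPR2 DELX libraries 1 to 4, against 10, 20, 10 and 12 counts in ROSA libraries 1 to 4. Its log2 fold change of -0.92 ± 0.36 had an adjusted p of 0.138 by edgeR. Apln, the gene of its ligand apelin, had 53.9, 65.8, 10.6 and 40.2 CPM in BMPR2 DELX, against 50.3, 57.9, 45.1 and 50.7 CPM in ROSA, and its one low library was BMPR2 DELX 3. Egfl7, a secreted angiogenic factor, had 84.6, 70.6, 16.4 and 33.2 CPM in BMPR2 DELX, against 39.8, 39.6, 15.3 and 38.2 CPM in ROSA. Libraries BMPR2 DELX 1 and 2 were above every ROSA library for Egfl7, while BMPR2 DELX 3 and ROSA 3 were alike. Neither ligand gene passed, with log2 fold changes of -0.26 ± 0.46 and 0.62 ± 0.52. Egfl7 overlaps the predicted gene Gm20532 and the microRNA gene Mir126a on the same strand, so reads there may be split or left uncounted. Ptprb and Fli1 also overlap genes with Gm names on the same strand.

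Lyl1 gave the only call. Lyl1 encodes a basic helix-loop-helix factor related to TAL1 and used by endothelial and blood cells. It had 6.18, 5.61, 0.968 and 3.28 CPM in BMPR2 DELX libraries 1 to 4, against 0.994, 1.21, 0.598 and 1.08 CPM in ROSA libraries 1 to 4. Libraries 1, 2 and 4 of BMPR2 DELX were above every ROSA library, while BMPR2 DELX 3 lay inside the ROSA range, so the groups overlapped. The log2 fold change was 2.03 ± 0.51, with an unadjusted p of 0.00303 and an adjusted p of 0.0409 by edgeR. The call rested on the set of libraries: it was lost in 7 of 8 fits that left out 1 library, with adjusted p up to 0.107, and held at 0.00592 without BMPR2 DELX 3. Without both BMPR2 DELX 3 and ROSA 3 it was 2.18 ± 0.27 with an adjusted p of 0.0100, and limma voom gave 1.68 ± 0.61 with an adjusted p of 0.114. Over its 18 alternative fits the sign was the same and 9 had an adjusted p below 0.05.

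The other transcription factor genes did not pass. Erg, an ETS factor needed for endothelial identity, had 54.6, 53.8, 8.48 and 27.8 CPM in BMPR2 DELX, against 36.2, 42.9, 21.8 and 31.8 CPM in ROSA. Sox18, a SOX factor of blood and lymph vessels, had 47.9, 52.2, 12.1 and 28.4 CPM in BMPR2 DELX, against 23.5, 24.1, 10.9 and 26.6 CPM in ROSA. Sox18 was well above every ROSA library in BMPR2 DELX 1 and 2, and the groups overlapped through BMPR2 DELX 3. Tal1, a basic helix-loop-helix factor, had 32.7, 31.5, 6.54 and 17.4 CPM in BMPR2 DELX, against 14.97, 23.4, 14.1 and 18.5 CPM in ROSA. Fli1, an ETS factor, had 36.4, 26.4, 9.45 and 14.1 CPM in BMPR2 DELX, against 18.1, 21.1, 10.2 and 16.8 CPM in ROSA. Both were highest in BMPR2 DELX 1 and lowest in BMPR2 DELX 3. Log2 fold changes were 0.12 ± 0.52 for Erg, 0.72 ± 0.46 for Sox18, 0.31 ± 0.45 for Tal1, 0.38 ± 0.42 for Fli1 and 0.63 ± 0.47 for Sox7, a SOX factor close to Sox18. Sox17, an arterial SOX factor, was the 1 negative value of the 7 tested, at -0.97 ± 0.58, with 61, 50, 20 and 61 counts in BMPR2 DELX, against 132, 145, 13 and 81 counts in ROSA.

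ETS factors such as ERG and FLI1 bind DNA around a GGAA core and are known regulators of endothelial promoters. RefSeq gave a start and promoter for 22 of the 39 genes, of build GRCm38.p6. Within 250 bases before the start, on either strand, AGGAAG was found in 11 of these 22 genes, against 32.3% of 27025 genes with a promoter. CCGGAAG was found in 1 of the 22, Lyl1, against 7.83% of all, and AGATAA, the GATA family's site, in 3 of the 22, against 11.4% of all. The motifs AGGAAG and CCGGAAG share their GGAAG end but no match of one is a match of the other. Shown are the 250 bases before the start of Tie1 and Emcn, which moved with Pecam1 over the libraries, and of Lyl1, the gene called, and Flt1, whose groups did not overlap. Each is written 5′ to 3′ on the gene's strand, at chr4:118489850-118490099 (minus) for Tie1, chr3:137340828-137341077 (plus) for Emcn, chr8:84701207-84701456 (plus) for Lyl1 and chr5:147726012-147726261 (minus) for Flt1, with AGGAAG and CCGGAAG of either strand in capitals.
Tie1: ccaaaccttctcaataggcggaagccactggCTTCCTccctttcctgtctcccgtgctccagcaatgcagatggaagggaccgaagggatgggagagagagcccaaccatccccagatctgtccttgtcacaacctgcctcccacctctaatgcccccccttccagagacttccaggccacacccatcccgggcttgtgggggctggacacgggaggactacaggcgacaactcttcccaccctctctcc
Emcn: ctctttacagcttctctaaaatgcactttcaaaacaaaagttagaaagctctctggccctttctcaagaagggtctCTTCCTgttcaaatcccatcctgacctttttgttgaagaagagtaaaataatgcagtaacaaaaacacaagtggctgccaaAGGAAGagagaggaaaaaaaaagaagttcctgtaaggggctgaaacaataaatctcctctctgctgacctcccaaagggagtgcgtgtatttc
Lyl1: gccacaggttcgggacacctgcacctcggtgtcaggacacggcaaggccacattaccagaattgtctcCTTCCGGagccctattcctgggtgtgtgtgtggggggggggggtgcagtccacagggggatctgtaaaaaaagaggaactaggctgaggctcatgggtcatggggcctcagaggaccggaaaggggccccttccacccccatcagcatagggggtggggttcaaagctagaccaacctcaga
Flt1: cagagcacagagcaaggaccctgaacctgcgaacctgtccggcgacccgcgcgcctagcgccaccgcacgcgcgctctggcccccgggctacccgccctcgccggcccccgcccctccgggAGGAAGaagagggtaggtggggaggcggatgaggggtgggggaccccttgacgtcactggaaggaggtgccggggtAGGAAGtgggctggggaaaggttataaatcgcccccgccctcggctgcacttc
A match is a description of these letters and not of binding. The starts are those of RefSeq. In the GENCODE annotation the Tie1 gene, on the minus strand, begins at 118490061 and the Emcn gene at 137341067. The Tie1 stretch therefore lies largely inside the GENCODE gene, and the last bases of the Emcn stretch do too.

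The remaining genes encode secreted, connexin, signalling and membrane proteins. Plvap, the diaphragm protein of fenestrated and venous endothelium, had 388, 441, 76.7 and 222 CPM in BMPR2 DELX libraries 1 to 4, against 384, 524, 258 and 401 CPM in ROSA libraries 1 to 4. Per kilobase of exon it was the most abundant gene of the list at a mean of 170 CPM per kb, ahead of Cdh5 at 69.9, Selp at 65.7 and Emcn at 54.3 CPM per kb. Its lowest library was BMPR2 DELX 3, its highest ROSA 2, and its log2 fold change was -0.48 ± 0.49. Nos3, the endothelial nitric oxide synthase, had 15.6, 31.5, 7.28 and 25.4 CPM in BMPR2 DELX, against 11.7, 11.96, 9.31 and 10.003 CPM in ROSA. All BMPR2 DELX libraries other than number 3 were above every ROSA library, whose own values were close together. Its log2 fold change was 0.89 ± 0.39 with an adjusted p of 0.197 by edgeR, and 1.17 ± 0.21 with an adjusted p of 0.0202 without BMPR2 DELX 3.

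Rasip1, a RAS-interacting protein needed for vessel lumens, had 2.85, 2.39, 0.645 and 0.804 CPM in BMPR2 DELX, against 0.994, 0.970, 0.432 and 0.496 CPM in ROSA. BMPR2 DELX 1 and 2 were above all ROSA libraries, and BMPR2 DELX 3 and 4 lay within their range. Its log2 fold change was 1.18 ± 0.52 with an adjusted p of 0.184 by edgeR, and it overlaps Izumo1 on the same strand. Myct1, an endothelial membrane protein, had 94.4, 94.7, 17.5 and 49.3 CPM in BMPR2 DELX, against 66.2, 93.1, 51.2 and 71.8 CPM in ROSA. Ecscr, which regulates endothelial migration, had 68.5, 67.2, 27.3 and 43.1 CPM in BMPR2 DELX, against 53.8, 66.4, 35.9 and 53.3 CPM in ROSA. Both followed the order of libraries seen for Pecam1 closely, and neither passed. The adaptor gene She had a log2 fold change of 0.72 ± 0.66.

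Mmrn2, a matrix protein that binds CD93 and CLEC14A, had 20.8, 24.6, 3.75 and 12.5 CPM in BMPR2 DELX, against 24.1, 23.9, 7.94 and 20.7 CPM in ROSA. Gja4, the connexin 37 gene, had 17.9, 11.2, 4.37 and 4.80 CPM in BMPR2 DELX, against 17.2, 13.1, 3.16 and 13.1 CPM in ROSA. Both were low in library 3 of each group, and neither passed. Vwf, the von Willebrand factor stored with P-selectin in Weibel-Palade bodies, had 0.491, 0.394, 0.616 and 0.759 CPM in BMPR2 DELX, against 0.621, 0.558, 0.432 and 0.525 CPM in ROSA. Vwf thus stayed below 1 CPM in every library and at a mean of 0.0342 CPM per kb, while Selp was at 65.7 CPM per kb.

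The endothelial genes varied together. The correlation of log2 CPM with Pecam1 over the 8 libraries was computed for the other 34 tested genes, and its median was 0.90, against -0.04 for all other genes tested. A Pearson r of at least 0.9 was reached by 16 of the 34, against 0.990% of the other genes, and at least 0.8 by 24, against 2.99%. Over all 595 pairs of endothelial genes the median r was 0.81. The values share libraries and depth, and the genes are not independent replicates.

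Selp tracked Pecam1 most closely, with r = 0.994 (exact permutation p = 2.48e-05, the smallest possible over 8 libraries) and Spearman's rho = 1 (exact permutation p = 4.96e-05), two-sided and unadjusted among 34 such relations. For Emcn r was 0.987 (exact permutation p = 0.000248) and rho 0.952 (exact permutation p = 0.00114). For Cdh5 r was 0.984 (exact permutation p = 9.92e-05) and rho 0.929 (exact permutation p = 0.00223). Without BMPR2 DELX 3 and ROSA 3, the 2 libraries farthest from the median of Pecam1, r was 0.983 for Selp, 0.984 for Emcn and 0.951 for Cdh5. The median over the 34 genes was then 0.74, with 15 at 0.8 or more. For 6 genes r was at least 0.5 over all 8 libraries and below 0.5 without those 2, on which their relation rested. Without them r was 0.31 for Esam, 0.46 for Kdr, 0.39 for Sox7, 0.38 for Sox18 and 0.33 for Sox17, against 0.78 to 0.90 over all 8. For Nos3 it was -0.13 without them, against 0.53 over all 8 (exact permutation p = 0.173, unadjusted), and for Lyl1 0.15, against 0.50.

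**Figure D3:**
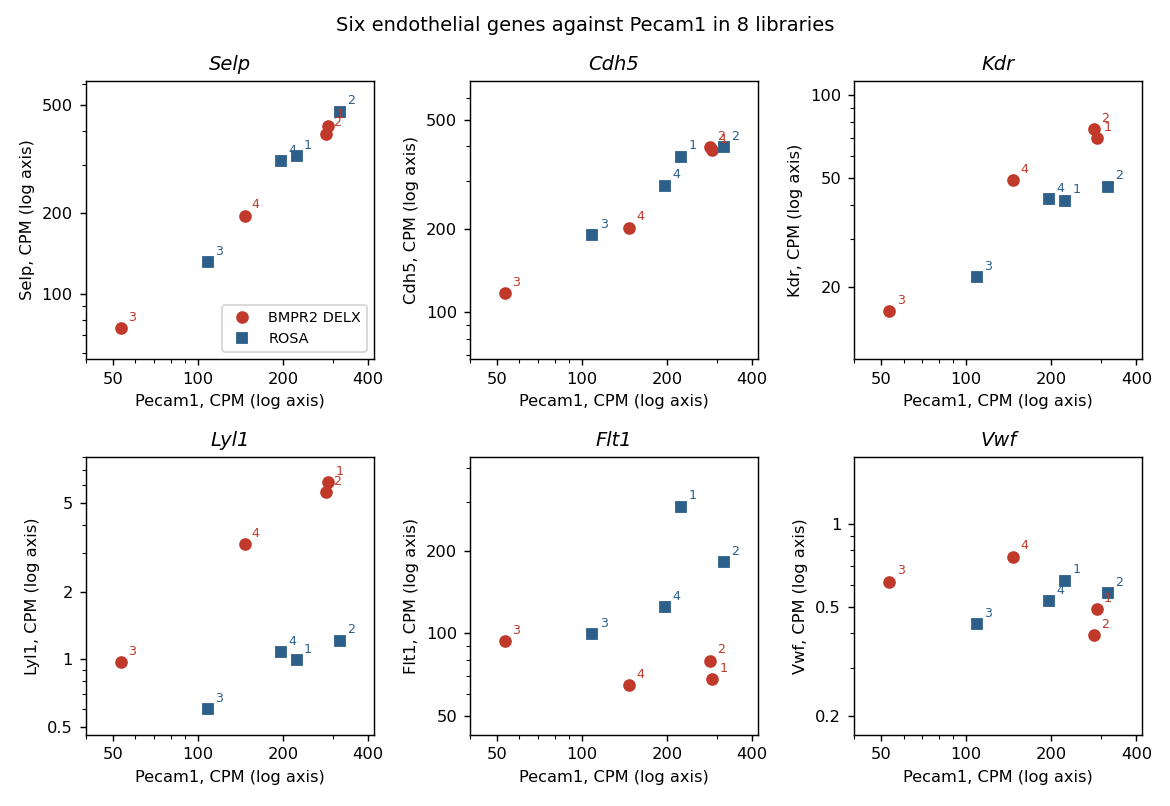
CPM of 6 endothelial genes against Pecam1 CPM in the 8 libraries on log axes, 1 panel a gene, with BMPR2 DELX libraries as red circles and ROSA libraries as blue squares, numbered by replicate. Selp and Cdh5 fall on 1 line for both groups, Lyl1 on a separate line for each group, and Flt1 on no line with Pecam1.

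Few genes departed from the shared pattern. Lyl1 had r = 0.50, Flt1 0.22, Aplnr 0.08 and Vwf -0.29 with Pecam1. For Lyl1 the low value came with a shift between groups: after each group's mean was removed its r was 0.97. For Flt1 it was then 0.12, for Aplnr -0.12 and for Vwf -0.28, but the groups were unlike. Within the 4 ROSA libraries r was 0.67 for Flt1, 0.65 for Aplnr and 0.81 for Vwf. Within the 4 BMPR2 DELX libraries it was -0.64 for Flt1, -0.36 for Aplnr and -0.61 for Vwf. Vwf had only 13 to 34 counts a library, and Aplnr was near the floor. Sox18 had r = 0.79 over all libraries and 0.96 after the group means were removed. Over the 34 genes the median r after the group means were removed was 0.96.

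The spread within groups was wide for nearly the whole list. The pooled SD of log2 CPM within groups had a median of 0.84 over the 35 genes, against 0.17 over all genes tested, and 32 of the 35 lay above 0.51, the 90th percentile of all genes. The median SD was 1.01 within BMPR2 DELX and 0.47 within ROSA. BMPR2 DELX 3 was the lowest of the 8 libraries for 25 of the 35 genes, against 12.9% of all genes tested. Within ROSA, library 3 was the lowest for 33 of the 35, against 26.5% of all genes tested. Without BMPR2 DELX 3 and ROSA 3 the median pooled SD of the 35 genes was 0.42.

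**Figure D4:**
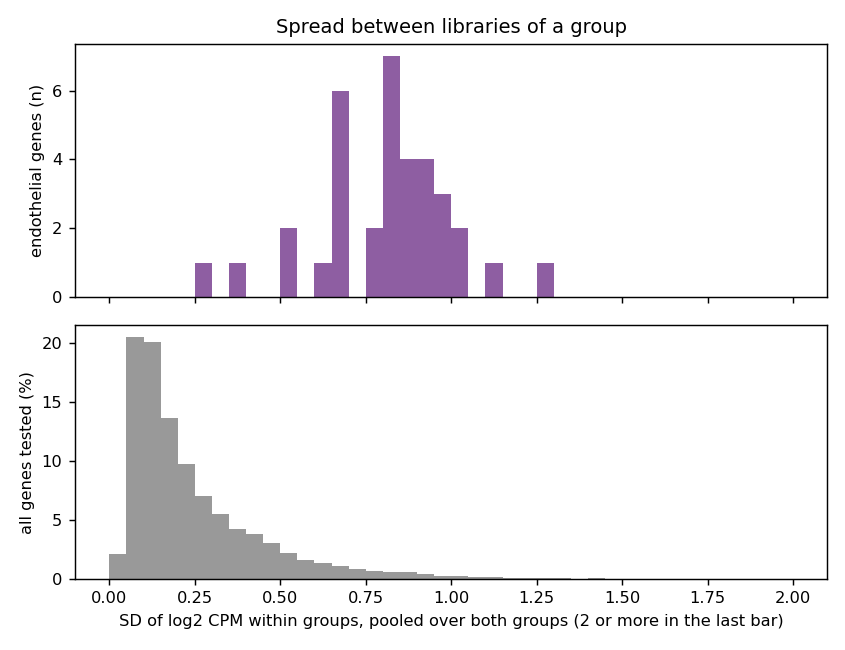
Distribution of the pooled within-group SD of log2 CPM, as the number of genes per bar for the 35 endothelial genes (top) and as the percent of genes per bar for all 14887 genes tested (bottom), with values of 2 or more in the last bar. The endothelial genes lie to the right of the bulk of all genes, with medians of 0.84 and 0.17.

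The same libraries were high and low in the sum of endothelial genes outside the list, though not in each of these genes. The 32 other endothelial genes summed to 2221, 2173, 930 and 1487 CPM in BMPR2 DELX libraries 1 to 4, against 1818, 1979, 1171 and 1709 CPM in ROSA libraries 1 to 4. Of these 26 were tested, with a median r of 0.81 with Pecam1, and 13 had r of at least 0.8. The range of r was 0.02, for Rhoj, to 0.99. Calcrl had 17.3, 21.7, 25.6 and 17.5 CPM in ROSA libraries 1 to 4, so it was highest of its group in ROSA 3. The 1 gene called was Rhoj, a small GTPase gene of endothelium that averaged 178 ± 4.47 CPM in BMPR2 DELX libraries and 205 ± 8.87 CPM in ROSA libraries (SD, n = 4 each). Of 9 tested lymphatic endothelial genes 1 was called, Pdpn, which stromal cells also express, lower in BMPR2 DELX by a log2 fold change of -0.44 ± 0.08. The lymphatic regulator Prox1 had 36.7, 19.1, 6.89 and 8.69 CPM in BMPR2 DELX, against 12.9, 15.5, 6.85 and 15.5 CPM in ROSA, and did not pass.

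Genes outside the 39 that varied most like the mean of Pecam1, Cdh5 and Tie1 were sought among tested genes with a mean of at least 1 CPM. Genes with predicted, clone or pseudogene names were left out. The 10 with the highest r over the 8 libraries were Ctla2a at 0.995, Bmp4 at 0.993, Ceacam1 at 0.993, Ctla2b at 0.990, Fam43a at 0.989, Fzd6 at 0.988, Eng at 0.985, Dock4 at 0.985, Edn1 at 0.983 and Cdh13 at 0.981. Bmp4 encodes a BMP ligand, Eng a BMP co-receptor of endothelium and Edn1 the vasoconstrictor endothelin 1, and Ctla2a and Eng were in the list of other endothelial genes. Bmp4 had 117, 101, 21.7 and 49.5 CPM in BMPR2 DELX, against 78.7, 106, 33.5 and 71.9 CPM in ROSA, with the same low libraries as Pecam1. Ctla2a and Ctla2b are near-identical copies, so their counts are uncertain. None of the 10 was called, with adjusted p between 0.789 and 0.994 by edgeR and log2 fold changes between -0.22 and 0.11. They were picked for following genes that differed little between the groups. The lack of calls and the shared low libraries therefore follow from that choice and are not separate results.

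Since levels moved together, each gene was also divided by Pecam1 in the same library. The ratio had a narrower range over the 8 libraries than the level for 29 of the 34 genes, with a median of 2.34-fold against 5.41-fold. For 8 genes every BMPR2 DELX ratio was above every ROSA ratio: Lyl1, Sox18, Sox7, Egfl7, Kdr, Icam2, Rasip1 and She. For Plvap every BMPR2 DELX ratio was below every ROSA ratio. Of all genes tested 1.04% had ratios that did not overlap, 0.833% higher and 0.208% lower, but for genes that do not move with Pecam1 the ratio carries the spread of Pecam1 itself.

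The Lyl1 ratio was 0.0204 ± 0.0019 in BMPR2 DELX and 0.00481 ± 0.00083 in ROSA libraries (SD, n = 4 each). It was 0.0214, 0.0198, 0.0181 and 0.0224 in BMPR2 DELX libraries 1 to 4, against 0.00444, 0.00382, 0.0055 and 0.0055 in ROSA libraries 1 to 4, so that BMPR2 DELX 3 no longer overlapped ROSA. The Sox18 ratio was 0.193 ± 0.025 in BMPR2 DELX and 0.104 ± 0.024 in ROSA. The Egfl7 ratio was 0.269 ± 0.037 in BMPR2 DELX and 0.160 ± 0.032 in ROSA, and the Kdr ratio 0.287 ± 0.042 in BMPR2 DELX and 0.186 ± 0.029 in ROSA. The Plvap ratio was 1.46 ± 0.10 in BMPR2 DELX and 1.95 ± 0.33 in ROSA, while the Selp ratio was 1.39 ± 0.05 in BMPR2 DELX and 1.43 ± 0.16 in ROSA and overlapped. The set of genes depended on the gene divided by: with Cdh5 it was 9 higher and 0 lower, and with Tie1 it was 2 higher, Lyl1 and Rasip1, and 6 lower. The share over all genes was not computed for the ratios to Cdh5 or Tie1, so these counts have no background beside them. Lyl1 and Rasip1 were higher with each of the 3, which are not independent, since r with Pecam1 was 0.984 for Cdh5 and 0.943 for Tie1.

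**Figure D5:**
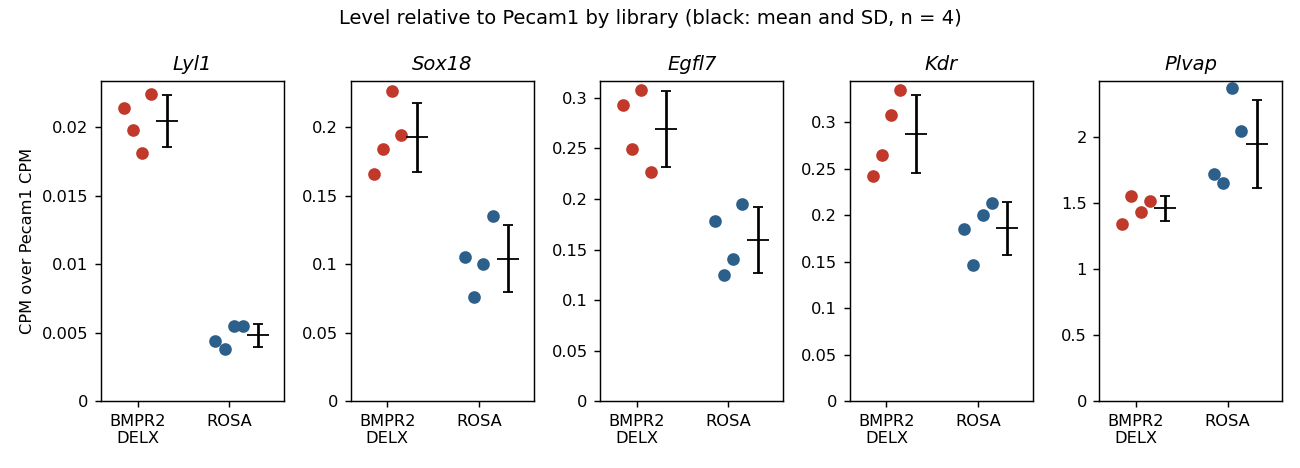
Ratio of CPM to Pecam1 CPM in each library for 5 endothelial genes, with BMPR2 DELX left of ROSA, points for libraries and black marks for the mean and SD (n = 4 each), on linear axes that start at 0. Lyl1, Sox18, Egfl7 and Kdr do not overlap and are higher in BMPR2 DELX, and Plvap does not overlap and is lower.

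With the level of an endothelial gene as a covariate in the edgeR fit, chosen after seeing the data, Lyl1 and Sox18 were called higher in BMPR2 DELX with each of Pecam1, Cdh5 and Tie1. For Lyl1 the log2 fold change was 2.12 ± 0.19 with Pecam1, 2.19 ± 0.22 with Cdh5 and 1.73 ± 0.22 with Tie1, with adjusted p of 0.000717, 0.00128 and 0.00220 by edgeR. For Sox18 it was 0.83 ± 0.14, 0.89 ± 0.16 and 0.49 ± 0.13, with adjusted p of 0.00903, 0.0108 and 0.0364 by edgeR. With the mean of the 26 other endothelial genes as the covariate Lyl1 was called, at 1.55 ± 0.20 with an adjusted p of 0.00242, and Sox18 was not, at 0.35 ± 0.11 with an adjusted p of 0.0597. That last fit called 9 endothelial genes lower, among them Selp, Emcn, Cdh5 and Pecam1. Of all genes 10.8% to 11.8% were called in these fits.

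Angiogenic ligand genes, many of which other cells make for endothelial receptors, were lower where they differed. Of 11 tested 3 were called lower in BMPR2 DELX and 8 did not pass, against 5.15% of all genes called lower. The median r with Pecam1 over the 11 was 0.09. Angpt2, Pdgfb and Cxcl12 moved with Pecam1, with r of 0.94, 0.85 and 0.79, and did not pass. Vegfc, a ligand of FLT4 and KDR, had 16.4, 13.7, 21.0 and 18.2 CPM in BMPR2 DELX libraries 1 to 4, against 43.0, 34.0, 42.8 and 31.5 CPM in ROSA libraries 1 to 4. Pgf, the placental growth factor that binds FLT1, had 20.2, 24.7, 12.6 and 16.8 CPM in BMPR2 DELX, against 50.3, 48.6, 29.9 and 29.7 CPM in ROSA. Every BMPR2 DELX library was below every ROSA library for both, and the log2 fold changes were -1.13 ± 0.15 and -1.09 ± 0.25, with adjusted p of 0.00356 and 0.0336 by edgeR. Angptl4, a secreted lipase inhibitor with effects on vessels, averaged 27.5 ± 1.63 CPM in BMPR2 DELX libraries and 56.9 ± 7.83 CPM in ROSA libraries. The main endothelial growth factor gene Vegfa did not pass, at a mean of 215 ± 33.2 CPM in BMPR2 DELX libraries and 266 ± 55.8 CPM in ROSA libraries (SD, n = 4 each).

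Of the lists for other cell types, none had a median correlation with Pecam1 as high as the endothelial lists, but single members did. The median r with Pecam1 was -0.16 for 10 tested mural cell genes, -0.40 for 9 fibroblast genes, -0.51 for 5 leukocyte genes, -0.45 for 5 adipocyte genes and 0.02 for 10 epithelial and mesothelial genes. Among these, r was 0.88 for Fabp4, 0.82 for Thy1 of the fibroblast list, and 0.82, 0.81 and 0.77 for the mesothelial markers Msln, Upk3b and Lrrn4, against -0.51 for Wt1, a factor of mesothelium. Msln had 88, 130, 33 and 105 counts in BMPR2 DELX libraries 1 to 4, against 247, 226, 52 and 176 counts in ROSA libraries 1 to 4. Upk3b had 38, 37, 1 and 18 counts in BMPR2 DELX, against 9, 16, 0 and 7 counts in ROSA, so both were lowest in library 3 of each group. Mural genes summed to 9505 to 12923 CPM in BMPR2 DELX and 11100 to 14714 CPM in ROSA libraries, with Notch3 called higher and Mcam and Cspg4 lower, and Kcnj8 and Higd1b at 3 counts or fewer in every library. Fibroblast genes summed to 21067 to 24548 CPM in BMPR2 DELX libraries and 20178 to 23046 CPM in ROSA libraries, with Col3a1 called higher. Leukocyte genes, given here since blood cells also use Lyl1, summed to 46.9, 37.7, 70.8 and 50.4 CPM in BMPR2 DELX libraries 1 to 4, against 25.1, 30.1, 34.8 and 37.0 CPM in ROSA libraries 1 to 4. Every BMPR2 DELX sum was above every ROSA sum, though 37.7 CPM in BMPR2 DELX 2 was close to 37.0 CPM in ROSA 4. Csf1r was the largest member of each sum, at 21.1, 23.7, 38.1 and 33.2 CPM in BMPR2 DELX libraries 1 to 4. In ROSA libraries 1 to 4 Csf1r was at 19.5, 20.5, 21.5 and 26.6 CPM, and it did not pass. All 5 tested leukocyte genes had positive log2 fold changes, with a median of 0.72, and Cd68 was the 1 called, higher in BMPR2 DELX. Lyz2 averaged 11.5 CPM in BMPR2 DELX libraries and 4.06 CPM in ROSA libraries, and Mpeg1 2.42 and 0.653 CPM. Of the leukocyte genes too low to test, C1qc averaged 0.398 CPM in BMPR2 DELX libraries and 0.0932 CPM in ROSA libraries. Ptprc went the other way, at 0.246 and 0.373 CPM, and Cd3e had at most 3 counts in every library. Of 10 erythroid and platelet genes 1 was tested and did not pass, and the globin genes and Alas2 had at most 3 counts in every library. Among epithelial genes Pax8 was called higher at a mean of 1.89 CPM in BMPR2 DELX libraries and 0.173 CPM in ROSA libraries, and among adipocyte genes Lpl was called higher. The part of any of these in the endothelial results was not tested.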

How the data were processed

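Polyadenylated RNA of 4 BMPR2 DELX and 4 ROSA samples was measured. The deposited files hold raw read counts per Ensembl gene in STAR's gene count layout. The submitters' processing notes name the build GRCm38 and the tools HTSeq and STAR 2.5.2b without saying what each did. The opposite-strand column held 92.1% to 94.0% of strand-assigned reads and was used. The 4 lines that name no gene (14.7% to 22.0% of reads) were left out. GENCODE M21 supplied symbols and exon lengths for 49412 of 49671 IDs, and RefSeq the promoters.

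Counts were filtered with filterByExpr, scaled with TMM factors and tested with edgeR 4.0.16 (quasi-likelihood, robust, Benjamini-Hochberg) in R 4.3.3. DESeq2 1.42.0 and limma 3.58.1 (voom with sample quality weights), other factors, filters and columns, a replicate term and left-out libraries were alternatives. CPM are TMM-scaled. Standard errors are the log2 fold change over the square root of F. Correlations and SDs used log2 CPM with a prior count of 2, and their exact permutation tests ran over all pairings. The model was tested on simulated data.

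The endothelial genes, 9 other lists and libraries left out together were chosen with earlier results of these data known. Per-library values are given for up to 4 genes a role by mean CPM, genes with an unadjusted p below 0.05 and genes with r below 0.5. Of other genes, 10 by r with the mean of Pecam1, Cdh5 and Tie1 and up to 3 a list by p are named. The 10 were taken from tested genes with a mean of at least 1 CPM and without predicted, clone or pseudogene names. Other genes were chosen after their values were seen.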

Additional observations from a re-analysis of the deposited data

Results flagged for a closer look

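Of 70 groups of 4 libraries examined, 1 for each group of each tested endothelial gene, 2 held a library whose gap to the nearest other passed Dixon's 95% critical value of 0.829, and chance flags about 1 in 20 groups. Egfl7 was at 15.3 CPM in ROSA 3, while the other ROSA libraries lay between 38.2 and 39.8 CPM. She, a gene of an SH2 adaptor, was at 0.498 CPM in ROSA 3, while the other ROSA libraries lay between 3.85 and 4.53 CPM. In BMPR2 DELX libraries 1 to 4 She was at 10.04, 6.68, 2.17 and 3.08 CPM. Both low values stood in the ROSA library that was also lowest in its group for most other endothelial genes.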

How the results depend on the processing

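The counts of genes higher and lower in BMPR2 DELX were 1065 and 1219 with DESeq2 and 222 and 409 without BMPR2 DELX 3 and ROSA 3. With upper-quartile factors they were 734 and 606, against 589 and 766 with TMM. Leaving out 1 library gave 213 to 545 higher and 264 to 721 lower. Of the endothelial genes, 0 were called higher with limma voom or with no filter, 2 (Lyl1 and Nos3) without BMPR2 DELX 3 and ROSA 3, and 0 to 2 with 1 library left out. Flt1 was the 1 called lower with DESeq2, with a filter of 1 CPM and without BMPR2 DELX 3 and ROSA 3, and 0 to 1 were with 1 library left out. Covariates gave 7 higher and 1 lower with Pecam1, 10 higher with Cdh5, 2 higher and 7 lower with Tie1, and 9 lower with the other endothelial genes. The ratio count was 0 lower with Cdh5, and 2 higher and 6 lower with Tie1, with no share over all genes computed for either. The median r was 0.96 for deviations from group means and 0.74 without BMPR2 DELX 3 and ROSA 3, where the median SD was 0.42. The median log2 fold change of the endothelial genes ran from -0.24 with the covariate of other endothelial genes to 0.31 without BMPR2 DELX 3, so its sign depended on the setting. The causes were not tested.

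With the replicate number as a block 563 genes were higher and 682 lower, with 2 endothelial genes called higher, Lyl1 and Rasip1 (1.09 ± 0.26, adjusted p = 0.0424 by edgeR). An unadjusted p below 0.05 by edgeR was then reached by 10 endothelial genes, against 4 without the block. The standard error of Pecam1 was 0.21 with the block, against 0.53 without it, so the block mattered for this list. Same-numbered libraries had correlations of 0.0050, 0.21, 0.24 and 0.093 of their deviations from group means over all genes tested, and not every library was most like its own number. The numbers were therefore not taken to pair samples. With 4 libraries a group the median SD of 1.01 (log2) within BMPR2 DELX limits what can be called. Nos3 and Sox18 did not pass in the fit of all 8 libraries. Nos3 passed without BMPR2 DELX 3, while Sox18 did not, with an adjusted p of 0.106 by edgeR. Sox18 passed only with Pecam1, Cdh5 or Tie1 as a covariate, chosen after seeing the data.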
